A study of Mus musculus with 7 samples.

Results

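The genes described here are 8 markers of vascular endothelium in libraries prepared from aged mouse retinal pigment epithelium (RPE): Pecam1, Cdh5, Tek, Tie1, Plvap, Vwf, Emcn and Egfl7. They were chosen by symbol as the rows of the count table that carry these names, and all 8 were present among 21861 rows. All 8 also passed the expression filter of the test, which kept 15075 genes. The RPE is the pigmented layer between the photoreceptors and the choroid, the vascular bed that supplies the outer retina. The 7 libraries came from old mice, 3 given an adeno-associated virus carrying GFP (AAV-GFP, the vector control) and 4 given one carrying the glutathione transferase GSTA4 (AAV-GSTA4), all collected 12 weeks later. The study's labels name the tissue only as RPE and give no strain, sex, exact age, vector promoter or dose, and they do not say whether each library is a separate animal. The p-values therefore measure the spread between these libraries, which may in part be technical.

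Endothelial cells line blood vessels, and in the choriocapillaris, the capillary bed directly behind the RPE, they are thin and perforated by fenestrae. Pecam1 and Cdh5 encode adhesion proteins of endothelial junctions. Tek and Tie1 encode the paired angiopoietin receptors, and angiopoietin 1 binding to TEK is known to keep vessels stable. Plvap encodes the protein of the diaphragms that close fenestrae, Vwf encodes von Willebrand factor, the clotting glycoprotein stored in Weibel-Palade bodies, Emcn encodes the surface sialomucin endomucin, and Egfl7 encodes a secreted protein of the vessel wall.

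In the GENCODE M21 annotation of the GRCm38 build the 8 genes lie on 6 chromosomes, and reads were counted over each gene. The junction genes are Pecam1 at chr11:106654217-106750628 (minus strand) and Cdh5 at chr8:104101625-104144511 (plus strand). The receptors are Tek at chr4:94739289-94874976 (plus strand) and Tie1 at chr4:118471191-118490061 (minus strand), on the same chromosome. The others are Plvap at chr8:71497765-71511752 (minus strand), Vwf at chr6:125546774-125686679 (plus strand), Emcn at chr3:137341067-137432185 (plus strand) and Egfl7 at chr2:26580014-26593120 (plus strand).

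Library totals lay between 15329181 and 28998964 counts, so 3 counts, taken as the smallest detectable level, corresponded to 0.111 to 0.176 CPM (counts-per-million, here scaled by the trimmed mean of M-values, TMM). Where several values are given for a group, they are in replicate order. The row of the human transgene, hGSTA4, held 3, 1 and 1 counts in the AAV-GFP libraries and 4209, 5239, 45 and 1184 counts in the AAV-GSTA4 libraries. The row of the GFP transgene, d2EGFP, held 99, 3970 and 2361 counts in the AAV-GFP libraries and 163, 64, 7 and 26 counts in the AAV-GSTA4 libraries. By this row AAV-GFP replicate 1 was not separated from the AAV-GSTA4 libraries, and by hGSTA4 AAV-GSTA4 replicate 3 was the lowest of its group. AAV-GFP replicate 3 stood apart: its log2 CPM correlated on average at 0.838 with the other libraries, against 0.910 to 0.926 for each of them. The summed level of 15 rod photoreceptor genes was highest in it, at 45206 CPM, against 17828 and 29721 CPM in the other AAV-GFP libraries and 9265 to 16238 CPM in AAV-GSTA4. The summed level of 18 RPE genes was lowest in it, at 24541 CPM, against 58811 to 115604 CPM in the others. Lens genes were highest in AAV-GSTA4 replicate 2, where 13 of them summed to 134131 CPM. Across the 15075 genes, 0 passed the threshold of 0.05 on the adjusted p-value (0%; quasi-likelihood F-test of edgeR, adjusted by the Benjamini-Hochberg method), and 1794 had an unadjusted p-value under 0.05 (11.9%). DESeq2 called 201 of the 10062 genes to which it gave an adjusted p-value (2%).

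The 8 genes were weakly expressed but present in every library. Together they held 521 to 1371 counts per library, or 0.00257% to 0.00894% of the total, and the lowest single count was 7, for Cdh5 in AAV-GSTA4 replicate 4. Because transcripts of different length collect different numbers of reads, levels were compared between genes per kilobase of annotated exon. On that scale Plvap was the most abundant, at 5.08 ± 1.64 CPM per kb (SD, n = 7), and its lowest library (2.97) lay above the highest library of every other member. Egfl7 followed at 1.598 ± 0.356 CPM per kb (SD, n = 7) and Emcn at 1.10 ± 0.522 (SD, n = 7), and these neighbours overlapped. Tek, Pecam1, Tie1, Vwf and Cdh5 had means of 0.769, 0.595, 0.521, 0.346 and 0.326 CPM per kb, in that order, and their ranges over the 7 libraries overlapped one another. In AAV-GFP Tek had the lowest mean of the 8 genes per kilobase, 0.427 ± 0.152 (SD, n = 3), whereas in AAV-GSTA4 it had the third highest, 1.02 ± 0.525 (SD, n = 4).

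These markers are shared by most blood vessels, so their presence does not place the signal in the choroid. The fenestral gene Plvap was detected throughout. Cldn5, the claudin of tight endothelial barriers such as that of the retina, was at 3.20 ± 3.39 CPM in AAV-GFP (SD, n = 3) and 1.30 ± 0.476 CPM in AAV-GSTA4 (SD, n = 4). Car4, the carbonic anhydrase that marks choriocapillaris, was at 1.65 ± 1.44 and 1.61 ± 0.782 CPM. In bulk tissue fewer endothelial cells and less RNA per endothelial cell cannot be told apart. Pecam1 and Vwf are also made by platelets. The summed level of 8 platelet genes was 8.44 to 10.6 CPM in AAV-GFP and 5.52 to 10.3 CPM in AAV-GSTA4, with Gp1bb at 0 in all 7 libraries and only 4 of the 8 abundant enough to be tested. Their part in the Pecam1 and Vwf values was not tested.

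The comparison of AAV-GSTA4 with AAV-GFP addresses how GSTA4 expression alters the aged RPE transcriptome. At the endothelial genes, 7 of 8 had lower fitted levels in AAV-GSTA4 and 1, Tek, had a higher one. Over all genes tested, 55.4% had a log2 fold change below 0 and 44.6% one above 0. The median log2 fold change of the 8 genes was -0.70, beside -0.07 over all genes tested. No member passed the adjusted threshold (0 of 8; smallest adjusted p = 0.407, for Tek, in edgeR's test), and Tek alone had an unadjusted p-value under 0.05. Without AAV-GFP replicate 3 the median was -0.13, with 6 genes lower and 2 higher, beside 0.01 over all genes tested, of which 49.6% were below 0. In that fit 0 of the 8 had an unadjusted p-value under 0.05, against 6.76% of all genes on the higher side and 5.74% on the lower side. Without AAV-GFP replicate 1, the library low in its transgene, the median was -0.98 and Tek was 1.36. Vwf (-2.00) and Cdh5 (-2.16) then had unadjusted p-values under 0.05, as did 1987 of the 15599 genes tested in that fit. The adjusted p-values of Vwf and Cdh5 were 0.323 and 0.367 in edgeR's test. AAV-GFP replicate 3, in which both were highest (20.7 and 4.61 CPM), was in that fit 1 of only 2 controls. Without AAV-GSTA4 replicate 3 the median was -0.68 and Tek was 1.41.

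**Figure D1:**
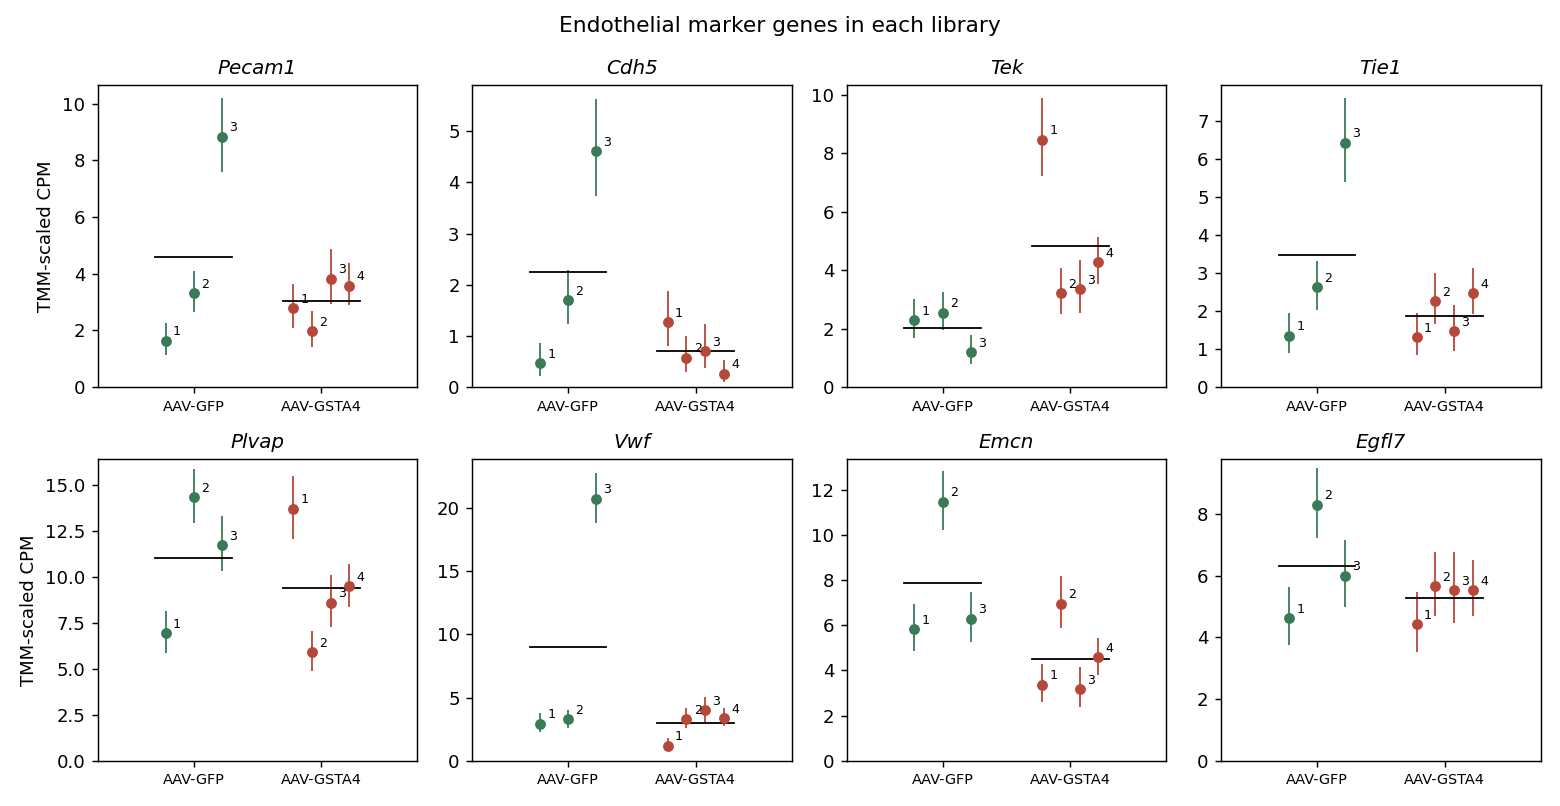
TMM-scaled CPM of each endothelial marker gene in each library; points are libraries with their replicate number, vertical bars are exact 95% Poisson intervals (counting error only) and horizontal lines are group means. Tek is the panel in which all 4 AAV-GSTA4 libraries, at 3.21 to 8.47 CPM, lie above all 3 AAV-GFP libraries, while Pecam1, Cdh5, Tie1 and Vwf each have a single high point, AAV-GFP replicate 3.

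Tek, the angiopoietin receptor, was at 2.28, 2.55 and 1.20 CPM in the AAV-GFP libraries. In the AAV-GSTA4 libraries it was at 8.47, 3.21, 3.35 and 4.28 CPM. The groups did not overlap, and AAV-GSTA4 replicate 1 was the one library well above the rest of its group. Over all genes tested, 6.44% had groups that did not overlap with AAV-GSTA4 higher, and 5.27% were higher at an unadjusted p-value under 0.05. The fitted level was 2.39 times that of AAV-GFP (95% interval 1.03 to 5.57), a log2 fold change of 1.26 ± 0.54 (SE), with an unadjusted p of 0.0440 and an adjusted p of 0.407 in edgeR's test. The exact permutation test of log2 CPM gave p = 0.0286, two-sided, which is the smallest value that 35 relabellings of 3 against 4 libraries allow. Tek kept its positive sign in all 18 alternatives, with log2 fold changes of 0.82 to 1.47. Because its groups did not overlap, that sign was all but fixed in advance in the fits that leave out a library. The unadjusted call was less firm: it was lost in 5 of the 7 fits that leave out a library, namely without any one of the AAV-GFP libraries or without AAV-GSTA4 replicate 1 or 4. It was also lost with library totals, with either replicate block, with the rod or the RPE score and with limma-voom, which makes 11 of the 18 alternatives. The unadjusted p-values of the 5 fits without a library lay between 0.0528 and 0.152. Without AAV-GSTA4 replicate 1 the log2 fold change was 0.86 and without AAV-GFP replicate 3 it was 1.00.

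Tie1, the partner receptor that has no well-established ligand of its own, had the opposite sign. It was at 1.35, 2.63 and 6.43 CPM in the AAV-GFP libraries and at 1.32, 2.26, 1.47 and 2.47 CPM in the AAV-GSTA4 libraries. Replicate 3 of AAV-GFP was the one high library, and the remaining 6 libraries of both groups covered the same range. Its fitted log2 fold change was -0.88 ± 0.63 (SE; adjusted p = 0.592 in edgeR's test), and -0.08 without that library. The ratio of Tek to Tie1 counts within a library, which does not depend on scaling between libraries, was 1.69, 0.971 and 0.187 in AAV-GFP and 6.44, 1.43, 2.28 and 1.73 in AAV-GSTA4. The lowest AAV-GSTA4 ratio lay below the highest AAV-GFP ratio, so the groups overlapped.

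The starts of 4 of the 8 genes were listed in the RefSeq promoter table (build GRCm38.p6), and the 250 bases before them are shown for the paired receptors Tek and Tie1, whose fitted changes had opposite signs, and for Emcn and Egfl7 as members with other profiles. Capitals mark every match, on either strand, to GGAA, the core letters bound by ETS factors, which regulate many endothelial genes, and to AACAGGAA, a joint FOX:ETS sequence that contains GGAA. The Tek window (chr4:94739039-94739288, plus strand) had 2 GGAA matches and the Tie1 window (chr4:118489850-118490099, minus strand) had 7. The Emcn window (chr3:137340828-137341077, plus strand) had 4 GGAA matches and the first of 3 Egfl7 windows (chr2:26580833-26581082, plus strand) had 5, and each of these held 1 AACAGGAA match. The other 2 Egfl7 windows, which are not printed, had 3 and 1 GGAA matches and 0 AACAGGAA matches.
Tek: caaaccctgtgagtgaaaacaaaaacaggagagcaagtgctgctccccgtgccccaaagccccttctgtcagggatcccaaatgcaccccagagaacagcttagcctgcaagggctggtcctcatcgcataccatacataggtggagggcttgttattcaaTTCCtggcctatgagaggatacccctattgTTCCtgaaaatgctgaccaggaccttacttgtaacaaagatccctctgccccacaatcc
Tie1: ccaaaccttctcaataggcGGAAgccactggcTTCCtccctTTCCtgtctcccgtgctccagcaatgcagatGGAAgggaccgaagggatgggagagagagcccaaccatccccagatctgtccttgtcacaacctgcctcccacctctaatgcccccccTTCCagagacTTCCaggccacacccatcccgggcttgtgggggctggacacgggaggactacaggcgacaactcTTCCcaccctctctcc
Emcn: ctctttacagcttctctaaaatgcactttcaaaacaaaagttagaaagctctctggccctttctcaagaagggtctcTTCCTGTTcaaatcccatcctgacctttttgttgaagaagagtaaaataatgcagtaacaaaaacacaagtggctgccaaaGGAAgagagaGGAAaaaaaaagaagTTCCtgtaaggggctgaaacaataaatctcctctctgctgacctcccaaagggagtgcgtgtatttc
Egfl7: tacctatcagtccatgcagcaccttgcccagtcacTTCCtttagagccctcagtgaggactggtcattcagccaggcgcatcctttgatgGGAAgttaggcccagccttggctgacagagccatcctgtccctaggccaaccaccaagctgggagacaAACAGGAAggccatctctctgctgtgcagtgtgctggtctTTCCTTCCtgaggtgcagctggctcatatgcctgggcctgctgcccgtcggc
Of 32851 windows of this length in the table, 93.5% held GGAA, with a median of 3 matches, and 2.25% held AACAGGAA. These matches describe letters in a window and do not show that a factor binds there.

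Angpt1, whose product is the activating ligand of TEK, went the other way from its receptor gene. It was at 10.95, 8.96 and 6.34 CPM in the AAV-GFP libraries and at 3.26, 5.28, 3.11 and 5.64 CPM in the AAV-GSTA4 libraries. No AAV-GSTA4 library reached the lowest AAV-GFP library, a separation in this direction that 5.61% of all genes tested showed. The fitted difference on the log2 scale was -1.01 ± 0.39 (SE; unadjusted p = 0.0266, adjusted p = 0.380 in edgeR's test), and it ranged from -1.19 to -0.82 with a library left out. Its unadjusted call was lost in 6 of 18 alternatives: without AAV-GFP replicate 1 or 2, without AAV-GSTA4 replicate 1 or 3, and with either replicate block. Angpt2, which can antagonise TEK, was at 8.02 ± 7.48 CPM in AAV-GFP (SD, n = 3) and 3.36 ± 3.51 CPM in AAV-GSTA4 (SD, n = 4), with wide overlap. Ptprb, the phosphatase that dampens TEK, was at 3.38 ± 0.579 and 2.34 ± 1.30 CPM (adjusted p = 0.773 in edgeR's test).

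**Figure D2:**
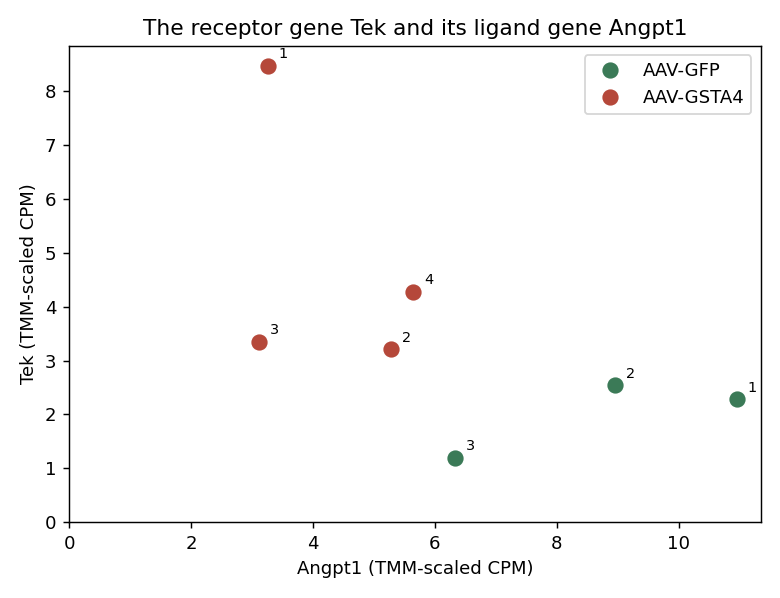
TMM-scaled CPM of Tek (vertical) against Angpt1 (horizontal) in each of the 7 libraries, with replicate numbers. The AAV-GSTA4 libraries have Angpt1 at 3.11 to 5.64 CPM and Tek at 3.21 CPM or more, and the AAV-GFP libraries have Angpt1 at 6.34 CPM or more and Tek at 1.20 to 2.55 CPM.

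Pecam1, a junctional adhesion protein also present on leukocytes and platelets, was at 1.63, 3.32 and 8.84 CPM in the AAV-GFP libraries. In the AAV-GSTA4 libraries it was at 2.79, 1.97, 3.82 and 3.58 CPM, all inside the AAV-GFP range. The log2 fold change was -0.60 ± 0.60 (SE; adjusted p = 0.715 in edgeR's test), and without AAV-GFP replicate 3 it changed sign, to 0.29.

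Cdh5, the cadherin that holds endothelial cells together, was at 0.466, 1.70 and 4.61 CPM in AAV-GFP and at 1.26, 0.576, 0.705 and 0.258 CPM in AAV-GSTA4, in replicate order. It was the least abundant of the 8 genes, with 7 to 96 counts, and its highest library was 17.9 times its lowest. The groups overlapped through AAV-GFP replicate 1. Its fitted log2 fold change was -1.69 ± 0.91 (SE; adjusted p = 0.481 in edgeR's test), with a 95% interval from -3.72 to 0.34, and it was -0.65 without AAV-GFP replicate 3.

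The catenins and other junction proteins to which cadherins attach are shared with epithelium. They summed to 468 to 573 CPM in AAV-GFP and 649 to 732 CPM in AAV-GSTA4. Of 7 tested, 4 were higher and 3 lower, and 2 were higher at an unadjusted p-value under 0.05 (5.27% over all genes). That count was 0 without AAV-GFP replicate 3 and also 0 without AAV-GSTA4 replicate 1. Ctnna1, alpha-catenin, was at 305 ± 51.8 CPM in AAV-GFP (SD, n = 3) and 441 ± 36.4 CPM in AAV-GSTA4 (SD, n = 4; adjusted p = 0.411 in edgeR's test). Plekha7, an epithelial junction protein, was at 44.99 ± 8.84 and 71.1 ± 15.6 CPM (adjusted p = 0.375). Ctnnb1, beta-catenin, was at 106 ± 4.82 and 105 ± 28.4 CPM.

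Plvap, the fenestral diaphragm gene, was at 6.94, 14.3 and 11.7 CPM in the AAV-GFP libraries and at 13.7, 5.90, 8.58 and 9.48 CPM in the AAV-GSTA4 libraries. Both groups spread over the same range. The fitted difference on the log2 scale was -0.23 ± 0.38 (SE; adjusted p = 0.841 in edgeR's test), with a 95% interval from -1.08 to 0.63, so a rise of 1 on the log2 scale lay outside the interval and a loss of that size inside it. The estimate was -0.18 without AAV-GFP replicate 3, and 0.019 without AAV-GFP replicate 2.

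Other genes of fenestrated capillaries and choriocapillaris also overlapped between the groups. Of 8 listed, 6 were tested, with 2 higher, 4 lower and 0 at an unadjusted p-value under 0.05 in edgeR's test. Cd36, a fatty acid and lipoprotein receptor also made by the RPE, was at 41.3 ± 20.8 CPM in AAV-GFP (SD, n = 3) and 25.1 ± 9.23 CPM in AAV-GSTA4 (SD, n = 4). Kdr, the main VEGF receptor, was at 12.6, 11.2 and 104 CPM in the AAV-GFP libraries and at 22.8, 19.96, 12.2 and 13.9 CPM in the AAV-GSTA4 libraries. A single library, AAV-GFP replicate 3, thus set the sign of its log2 fold change, which was -1.31 with that library and 0.54 without it.

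Vwf was at 2.94, 3.28 and 20.7 CPM in the AAV-GFP libraries. In the AAV-GSTA4 libraries it was at 1.21, 3.31, 4.00 and 3.39 CPM. Replicate 3 of AAV-GFP held 6.67 times the mean of the other AAV-GFP libraries, the largest such ratio among the 8 genes. The log2 fold change was -1.59 ± 0.72 (SE; unadjusted p = 0.0540, adjusted p = 0.427 in edgeR's test). Without AAV-GFP replicate 3 it was -0.06, with an adjusted p of 0.972.

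Among 14 genes of Weibel-Palade bodies and local haemostasis, 12 were tested, with 2 higher and 10 lower. Procr, the endothelial protein C receptor, alone had an unadjusted p-value under 0.05 (1 of 12; 6.63% over all genes on the lower side). It was at 4.07 ± 1.34 CPM in AAV-GFP (SD, n = 3) and 1.63 ± 0.541 CPM in AAV-GSTA4 (SD, n = 4). Its groups did not overlap (1 of 12 lower; 5.61% over all genes). Its log2 fold change was -1.31 ± 0.52 (SE; adjusted p = 0.384 in edgeR's test). The unadjusted call was lost in 5 of the 7 fits that leave out a library. Cd63 and Rab27a, which also serve melanosomes and lysosomes, had the highest levels of this list, at 1467 ± 772 and 153 ± 46.1 CPM in AAV-GFP (SD, n = 3) and 1923 ± 431 and 233 ± 66.5 CPM in AAV-GSTA4 (SD, n = 4).

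Emcn was at 5.83, 11.5 and 6.29 CPM in the AAV-GFP libraries and at 3.37, 6.96, 3.17 and 4.57 CPM in the AAV-GSTA4 libraries. Only AAV-GSTA4 replicate 2 reached the AAV-GFP range. Its fitted log2 fold change was -0.80 ± 0.43 (SE; adjusted p = 0.484 in edgeR's test, exact permutation p = 0.143). Unlike Vwf and Tie1, its value did not rest on AAV-GFP replicate 3, without which it was -0.94, and it was negative in all 18 alternatives (-1.09 to -0.42). It was nearest to 0, at -0.42, without AAV-GFP replicate 2, the library with the highest level.

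Egfl7 varied least, with a coefficient of variation of 22.3% over the 7 libraries, against 32.3% to 122% for the other members. It was at 4.61, 8.30 and 6.003 CPM in AAV-GFP and at 4.42, 5.66, 5.52 and 5.53 CPM in AAV-GSTA4, in replicate order. The fitted difference on the log2 scale was -0.26 ± 0.36 (SE; adjusted p = 0.803 in edgeR's test), with a 95% interval from -1.06 to 0.55. The gene overlaps other annotated genes: its exons share 264 bases with Gm20532 and 64 bases with Agpat2, and it hosts the microRNA Mir126a. How reads in shared bases were assigned is not given in the sources used here, so its level is the least certain of the 8 in this respect. The other 7 members share no exonic base with another gene in the annotation.

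**Figure D3:**
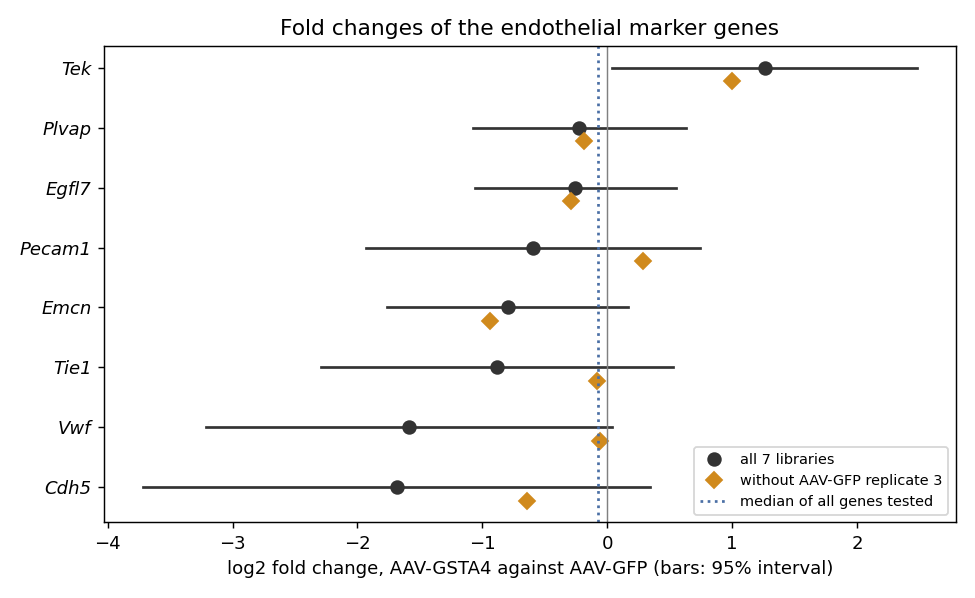
Log2 fold change of each endothelial marker gene, AAV-GSTA4 against AAV-GFP, from edgeR's fit; black points with bars are estimates and 95% intervals from all 7 libraries, orange diamonds are estimates without AAV-GFP replicate 3, and the dotted line is the median of all genes tested. Vwf, Cdh5, Tie1 and Pecam1 move towards or past 0 without that library, and only Pecam1 changes sign. Tek also moves towards 0, from 1.26 to 1.00, whereas Emcn moves away from it, from -0.80 to -0.94.

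The members did not follow a single profile over the libraries. Pecam1, Cdh5, Tie1 and Vwf were highest in AAV-GFP replicate 3, at 3.24 to 6.67 times the mean of the other AAV-GFP libraries. Plvap, Emcn and Egfl7 were highest in AAV-GFP replicate 2. Tek was highest in AAV-GSTA4 replicate 1 and lowest in AAV-GFP replicate 3. Over all genes tested, 32.2% were highest in AAV-GFP replicate 3, and of 25 other endothelial genes tested 15 were (60%), including Kdr and Flt1. The summed level of the 8 genes was 26.1, 47.6 and 65.8 CPM in the AAV-GFP libraries and 36.5, 29.8, 30.6 and 33.6 CPM in the AAV-GSTA4 libraries. The AAV-GFP libraries thus lay on both sides of all AAV-GSTA4 libraries, with means of 46.5 ± 19.9 CPM (SD, n = 3) and 32.6 ± 3.05 CPM (SD, n = 4).

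Shares within the 8 genes remove differences in the amount of endothelial RNA that affect all of them alike. Tek made up 8.77%, 5.36% and 1.82% of these counts in the AAV-GFP libraries and 23.2%, 10.8%, 10.9% and 12.7% in the AAV-GSTA4 libraries. Every AAV-GSTA4 library lay above every AAV-GFP library. These shares reuse the Tek counts, whose levels did not overlap either, so they are no separate support. The total they are taken over also includes genes that were highest in AAV-GFP replicate 3, such as Vwf. The shares of the other 7 genes overlapped between the groups. Plvap took 17.8% to 30.1% in AAV-GFP and 19.8% to 37.5% in AAV-GSTA4. Vwf took 31.5% in AAV-GFP replicate 3 and 3.31% to 13.1% in the other 6 libraries.

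**Figure D4:**
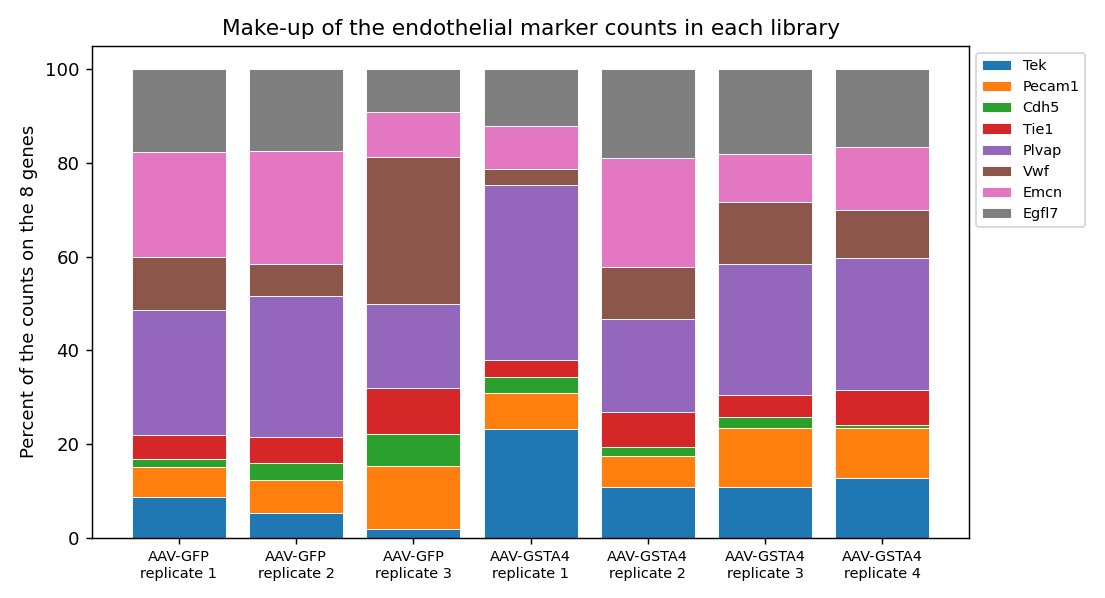
Percent of the counts on the 8 endothelial marker genes taken by each gene, per library; each bar sums to 100%. The Tek segment at the base is 1.82% to 8.77% in AAV-GFP and 10.8% to 23.2% in AAV-GSTA4, and the Vwf segment is largest, at 31.5%, in AAV-GFP replicate 3.

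Y-linked transcripts separated the libraries into those with counts on these genes (AAV-GFP replicate 1 and AAV-GSTA4 replicates 3 and 4) and those nearly without, so the members were compared within each class, with no test because the classes hold 3 and 4 libraries. The only AAV-GFP library of the first class is replicate 1, which was low in d2EGFP. Tek was higher in AAV-GSTA4 in both classes, which was fixed in advance for any split, because its groups did not overlap. It was at 3.35 and 4.28 against 2.28 CPM in the first class, and 3.21 and 8.47 against 1.20 and 2.55 CPM in the second. Emcn was lower in both, at 3.17 and 4.57 against 5.83 CPM and at a mean of 5.16 against 8.88 CPM, with overlap in the second class. The means of the other 6 members were higher in AAV-GSTA4 in the first class and lower in the second. For Plvap they were 9.03 against 6.94 CPM in the first and 9.79 against 13.0 CPM in the second.

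Most genes of the wider endothelium also had negative fold changes. Of 28 other pan-endothelial genes, 25 were tested, of which 21 were lower and 4 higher in AAV-GSTA4; their median log2 fold change was -0.53. None had an unadjusted p-value under 0.05 in edgeR's test (0 of 25; 11.9% over all genes). Without AAV-GFP replicate 3 the median was -0.16, with 16 lower and 10 higher of 26 tested. Ramp2, a receptor partner in adrenomedullin signalling that is not restricted to endothelium, had the highest level, at 93.0 ± 53.8 CPM in AAV-GFP (SD, n = 3) and 105 ± 25.5 CPM in AAV-GSTA4 (SD, n = 4). Robo4, an endothelial guidance receptor, and Flt4, the VEGF-C receptor, had groups that did not overlap. That is 1 of 25 genes higher and 1 of 25 lower, beside 6.44% and 5.61% of all genes tested. Robo4 was at 0.251 ± 0.0322 and 1.02 ± 0.665 CPM, and Flt4 at 2.41 ± 1.37 and 0.894 ± 0.241 CPM (adjusted p = 0.425 and 0.433 in edgeR's test). In AAV-GFP Robo4, at 0.232 to 0.288 CPM, lay near the floor of 3 counts, 0.116 to 0.144 CPM in these libraries.

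In the angiopoietin and VEGF pathway, 12 of 14 tested genes were lower and 2 higher, Vegfc and Pgf. Angpt1 alone had an unadjusted p-value under 0.05 in edgeR's test (1 of 14; 6.63% over all genes on the lower side). Vegfa, the growth factor by which the RPE maintains the choriocapillaris, was at 70.5 ± 6.82 CPM in AAV-GFP (SD, n = 3) and 64.7 ± 36.3 CPM in AAV-GSTA4 (SD, n = 4; adjusted p = 0.917 in edgeR's test). Among 12 arterial and venous genes, 9 were tested, 6 of them lower and 3 higher. Efnb2, the arterial ephrin, was at 8.11 ± 3.93 and 2.96 ± 0.853 CPM without overlap (1 of 9 lower; 5.61% over all genes). Its log2 fold change was -1.45 ± 0.45 (SE; adjusted p = 0.363 in edgeR's test). Its highest library was AAV-GFP replicate 3, at 12.6 CPM, without which the log2 fold change was -0.98. Nr2f2, a venous factor that stromal cells also make, was at 25.5 ± 6.96 and 22.8 ± 7.09 CPM. Of 5 lymphatic genes 4 were lower, and Reln, also a neuronal gene, was at 57.6 ± 15.3 and 32.7 ± 12.0 CPM (adjusted p = 0.384).

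The list of retinal barrier endothelium mixed directions, with 3 of 11 tested genes higher and 8 lower, or 5 and 6 without AAV-GFP replicate 3. Its most abundant genes, the organic anion transporters Slco1a4 and Slco1c1, were at 508 ± 305 and 193 ± 97.1 CPM in AAV-GFP (SD, n = 3), levels that the 8 markers did not approach. In AAV-GSTA4 they were at 908 ± 220 and 329 ± 58.6 CPM (SD, n = 4). Like the sum of the RPE genes, both were lowest in AAV-GFP replicate 3 (190 and 93.5 CPM) and highest in AAV-GSTA4 replicate 3 (1192 and 385 CPM). Mfsd2a was also lowest in AAV-GFP replicate 3, at 4.51 CPM. Whether these 3 transcripts came from endothelium was not tested. Mfsd2a, a lysophospholipid transporter, was at 11.9 ± 6.50 and 32.4 ± 8.94 CPM without overlap (1 of 11 higher; 6.44% over all genes). Its log2 fold change was 1.44 ± 0.44 (SE; adjusted p = 0.363 in edgeR's test). Abcg2, an efflux pump, was at 11.7 ± 6.10 and 5.26 ± 2.09 CPM (log2 fold change -1.15, adjusted p = 0.393 in edgeR's test), and its log2 fold change was -0.65 without AAV-GFP replicate 3.

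Other cells of the vessel wall and blood were read from their own lists. Of 11 pericyte and smooth muscle genes, 7 were lower and 4 higher, and their sum was 193 to 398 CPM in AAV-GFP and 329 to 462 CPM in AAV-GSTA4. Pdgfrb, the pericyte receptor for platelet-derived growth factor B, was at 8.15 ± 4.04 CPM in AAV-GFP (SD, n = 3) and 20.9 ± 9.44 CPM in AAV-GSTA4 (SD, n = 4). Its groups did not overlap (1 of 11 higher; 6.44% over all genes), and its log2 fold change was 1.35 ± 0.46 (SE; adjusted p = 0.364 in edgeR's test). Acta2, smooth muscle actin, was at 217 ± 91.2 and 279 ± 57.2 CPM. The 5 red blood cell genes summed to 436 to 1038 CPM in AAV-GFP and 423 to 2470 CPM in AAV-GSTA4. The 8 stromal fibroblast genes summed to 184 to 976 and 307 to 650 CPM, and the 12 macrophage genes to 513 to 948 and 723 to 976 CPM, with all 3 of these sums overlapping between groups. The macrophage sum hides opposite signs: 11 of 12 genes were lower, with a median log2 fold change of -0.44 over the list. Of these, 3 had an unadjusted p-value under 0.05 in edgeR's test (6.63% over all genes on the lower side). That count was 1 without AAV-GSTA4 replicate 1 and 4 without AAV-GFP replicate 3. Csf1r, the receptor for colony-stimulating factor 1, was higher, at a mean of 450 against 208 CPM without overlap (1 of 12 higher; 6.44% over all genes). Its adjusted p was 0.363 in edgeR's test and 0.0492 in the test of DESeq2, which called 2% of the genes it adjusted. Macrophages also make Pecam1. The part of these cells in the levels of the 8 markers was not tested.

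Rod and RPE genes also had fitted differences between the groups, though 0 of them passed the adjusted threshold and the RPE sums overlapped. All 15 rod genes were lower in AAV-GSTA4, 14 of them at an unadjusted p-value under 0.05 (6.63% over all genes), and 15 of 18 RPE genes were higher, 6 of them under 0.05 (5.27% over all genes). Without AAV-GFP replicate 3, 9 rod genes were under 0.05 and the median of the rod genes was -0.78 instead of -1.25. The median of the RPE genes was then 0.30 instead of 0.60, with 14 of 18 higher. With the rod score as a covariate the median log2 fold change of the 8 markers was 0.40, and with the RPE score it was -0.017. The rod sums did not overlap between the groups (17828 to 45206 against 9265 to 16238 CPM), so group and rod content cannot be well told apart in the rod-score fit. Standard errors of the 8 were larger with the rod score than in the reported fit (0.89 against 0.54 for Tek). Tek was 1.10 and 0.96 in these fits and Emcn -0.89 and -0.78, whereas Vwf was 0.42 and 0.12. The adjusted threshold was passed by 0 of the 8 in either fit, and their smallest adjusted p was 0.566. Whether rod or RPE content has a part in the fold changes was not tested beyond these fits.

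**Figure D5:**
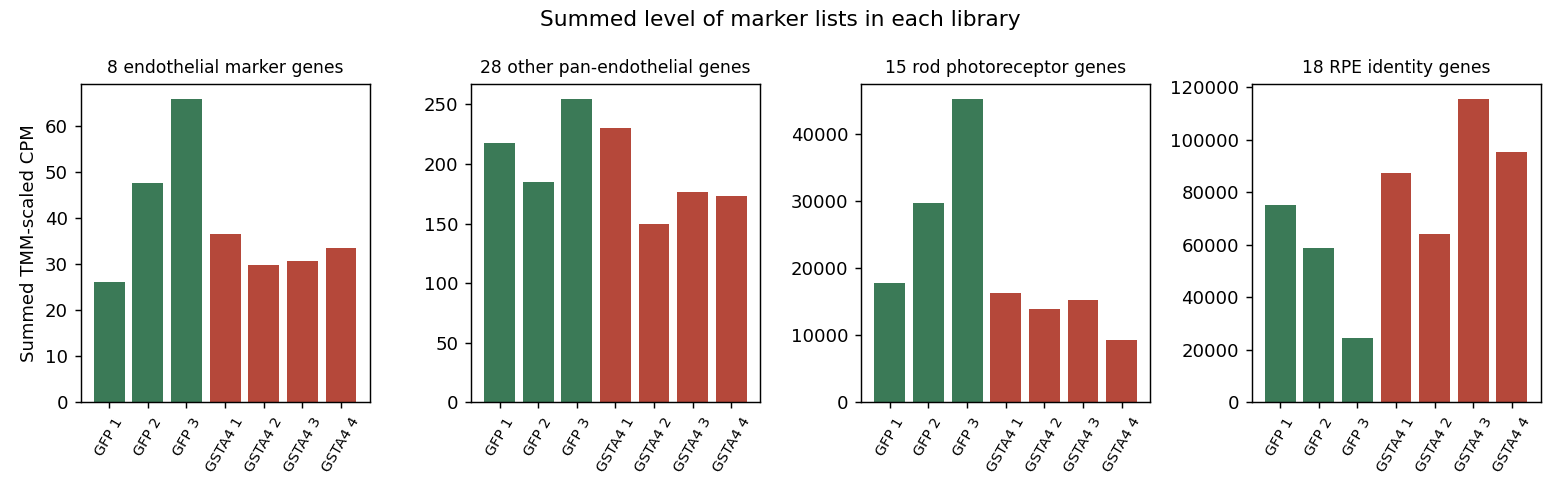
Summed TMM-scaled CPM of the endothelial, other pan-endothelial, rod and RPE gene lists in each library (green AAV-GFP, red AAV-GSTA4; each panel has its own scale from 0). AAV-GFP replicate 3 has the highest endothelial sum, 65.8 CPM, the highest rod sum, 45206 CPM, and the lowest RPE sum, 24541 CPM.

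Genes whose profile over the 7 libraries was nearest to the average of the 8 markers were ranked by the root mean square difference of centred log2 CPM, among 15067 other genes. The nearest were Coro1a (0.08), Pex10 (0.10), Zfp612 (0.11), Fbxl15 (0.11) and Shq1 (0.12), none of which is an endothelial marker. The members themselves lay 0.34 (Egfl7) to 1.07 (Tek) from their own average, farther than these 5 genes. Over all genes tested the median distance was 0.66. Cdh5 (0.81), Vwf (0.84) and Tek lay farther than that median, and the other members nearer. Coro1a was at 9.84 ± 3.84 CPM in AAV-GFP (SD, n = 3) and 6.66 ± 0.296 CPM in AAV-GSTA4 (SD, n = 4). The measure compares levels over the libraries and says nothing of shared function.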

How the data were processed

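The authors deposited 1 table of raw read counts per gene symbol with 1 column per library. STAR 2.7.1a, featureCounts 1.6.2 and the builds GRCm38 and mm10, beside GRCh38 and hg38, are named in the submitters' processing notes; the annotation release, strand setting and handling of shared reads are not given in the sources used here. Polyadenylated RNA was amplified as full-length cDNA without stated molecular identifiers, per the labels' protocols, so intervals and the floor of 3 counts cover counting error only.

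Counts were tested with edgeR 4.0.16 (R 4.3.3): quasi-likelihood F-test with the robust option, default expression filter, TMM scaling, group as the only factor, all 7 libraries. The standard error of a log2 fold change is its size over the root of F. Log2 CPM used a prior count of 2. Symbols on several rows (26 extra rows) were kept as separate rows. The members and lists were chosen with earlier results of these data known, and no list received a test. Named genes were all members, the 2 most abundant genes of most lists and genes with an unadjusted p-value under 0.05 (up to 3 a list), plus the 5 nearest profiles; Cldn5, Car4, Angpt2, Ptprb, Kdr, Csf1r, Flt1, Robo4, Flt4, Vegfc, Pgf and Ctnnb1 were named after their values were seen, and lists outside the vasculature are given as sums. Exon lengths and positions are from GENCODE M21 (GRCm38), promoters from RefSeq (GRCm38.p6).

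Alternatives were median-of-ratios scaling, library totals, 2 filters, replicate blocks, rod or RPE scores as covariates, DESeq2 1.42.0, limma-voom (limma 3.58.1), no robust option and each library left out. Every pair of libraries differed by more than sampling noise (chi-square per gene at least 50.7).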

Additional observations from a re-analysis of the deposited data

Results flagged for a closer look

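Egfl7 in AAV-GSTA4 had a library set apart: replicate 1, at 4.42 CPM, lay below the other 3 at 5.52 to 5.66 CPM, and its gap was 0.889 of the group's range, above Dixon's 95% critical value for 4 libraries. It was 1 of 26 results examined in this way, where chance gives about 5%, and AAV-GFP replicate 1, at 4.61 CPM, was close to it.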

How the results depend on the processing

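The number of members past the adjusted threshold was 0 in every alternative run. DESeq2 gave 7 of the 8 no adjusted p-value. The count over all genes was 201 with DESeq2, 1 with a replicate block by either numbering (hGSTA4, the vector's transgene), 1 with the rod score (Cyp2f2), 0 to 1 with a library left out (hGSTA4, without AAV-GSTA4 replicate 3) and 0 otherwise; the cause was not tested. The median log2 fold change of the members was -0.70 in the reported fit, -1.06 with library totals, -0.51 with the replicate block by library number, 0.40 with the rod score, -0.017 with the RPE score, -0.27 with limma-voom, and -0.98 to -0.13 with a library left out. Library totals moved the median of all genes from -0.07 to -0.37, and the members relative to it from -0.63 to -0.69; 11.1% of genes with an unadjusted p-value under 0.05 were then higher, against 44.3%. Signs reversed with the rod score for Pecam1 (1.01), Cdh5 (1.48), Tie1 (0.31), Plvap (0.38) and Vwf (0.42), with the RPE score for Pecam1 (0.44), Tie1 (0.15) and Vwf (0.12), and with limma-voom for Pecam1 (0.17). The rod sums did not overlap between the groups, so the rod-score fit separates group from rod content poorly. With a library left out Pecam1 ranged from -0.99 to 0.29 and Plvap from -0.46 to 0.019. Cdh5 was not tested with at least 10 counts in every library. The labels state no pairing by replicate number. Deviations of same-numbered libraries correlated at -0.09 to 0.01 by title and -0.13 to 0.01 by library number. Only for library number 3 was the same-numbered AAV-GSTA4 library the best match. With so few pairs these values cannot exclude pairing. Under the replicate block by title number the median of the members was -0.60. Among the other named genes, the unadjusted call was lost in 12 of 18 alternatives for Ctnna1, 9 for Abcg2, 7 for Procr and for Plekha7, 5 for Reln, 2 for Efnb2 and for Pdgfrb, and 1 for Mfsd2a and for Csf1r.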
